A study of Mus musculus with 8 samples.

Results

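Neurotrophins are secreted growth factors that keep neurons alive and guide their axons, and their receptors are the Trk tyrosine kinases and the low-affinity receptor p75. GDNF works beside them through a separate receptor, made of a GPI-anchored subunit, Gfra1, and the tyrosine kinase Ret. In rodent teeth both families are known for their part in trigeminal innervation, and several members are also transcribed by dental epithelium and mesenchyme that carry no nerve. The genes described here are Ntrk2 (the BDNF receptor TrkB), Ntrk3 (the neurotrophin-3 receptor TrkC), Ngfr (p75), the ligands Bdnf, Ntf3 and Gdnf, and the GDNF receptor genes Gfra1 and Ret.

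Members were all probe sets that the platform annotation names with exactly 1 of these 8 genes, a probe set being the group of short probes on the array that together measure a transcript. There were 27 such probe sets of 7 genes, out of 34945 single-gene probe sets of 18193 genes on the array: 8 for Ntrk2, 8 for Ntrk3, 3 each for Ngfr and Gfra1, 2 each for Bdnf and Ret, and 1 for Gdnf. Ntf3 was matched by no probe set used here and was not analysed. The set was chosen on the Ntrk2 signal of these same arrays, which earlier results gave as low after 5E1. All values of the members in the 5E1 comparisons are therefore descriptions without a test. Cyclopamine against PBS and 40-1a against PBS did not choose the members and were tested. Their 40-1a and PBS arrays also served in the 5E1 comparisons, so the tests of Ntrk2 are not independent of the choice.

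RNA came from mandibular molar tooth germs of mouse embryos of the outbred ICR stock, taken 24 hours after a single intraperitoneal injection of the pregnant mother on embryonic day 14. Mothers received 10 mg/kg of 5E1, a monoclonal antibody that blocks Shh, or 10 mg/kg of 40-1a, a control antibody against β-galactosidase. The other mothers received 10 mg/kg of cyclopamine, an antagonist of the Hedgehog signal transducer Smo, or 1 ml of PBS. Each of the 4 groups had 2 arrays called biological replicates, with no statement of how many embryos or litters each holds, so a p-value here reflects differences among these arrays, which may be partly technical. The tissue is whole tooth germ with what was dissected along with it, and fewer cells of a type and less RNA per cell cannot be told apart.

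The signal is the MAS5 intensity of the authors, with a median per array of 92.3 to 127.6. A probe set was tested if its mean log2(signal + 9) over the 8 arrays reached 6.12, a signal of 60.5, which left 23576 probe sets, among them 14 of the 27 members. By hierarchical clustering of these, replicate 1 of 5E1, 40-1a and PBS formed cluster 1, replicate 2 of all 4 groups formed cluster 2, and cyclopamine replicate 1 stood alone. Pearson's r between arrays across probe sets was 0.966 to 0.982 within clusters and 0.945 to 0.966 between the arrays of a group. Ptch1, the Hedgehog receptor and target gene, had signals of 2122 and 1553 after 5E1 against 11322 and 7180 after 40-1a. Gli1, the transcription factor induced by the pathway, had 239.7 and 348.0 after 5E1 against 1196 and 1586 after 40-1a. After cyclopamine the arrays of both genes overlapped those of PBS, with Ptch1 at 9683 and 5793 against 9611 and 8474 and Gli1 at 2157 and 1193 against 1070 and 2143.

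The start-site windows of the receptor genes Ntrk2 and Ngfr are shown because Ntrk2 is the member that was low after 5E1 and Ngfr is the other receptor of the neurotrophins with an entry in the promoter table. Each runs from 250 bases before to 50 bases after the annotated start (RefSeq, GRCm38.p6), 5′ to 3′ on the gene's strand, with matches to the GC box GGGCGG or its reverse complement CCGCCC in capitals. The Ntrk2 window is chr13:58806319-58806618, plus strand, and the Ngfr window is chr11:95587649-95587948, minus strand.
Ntrk2: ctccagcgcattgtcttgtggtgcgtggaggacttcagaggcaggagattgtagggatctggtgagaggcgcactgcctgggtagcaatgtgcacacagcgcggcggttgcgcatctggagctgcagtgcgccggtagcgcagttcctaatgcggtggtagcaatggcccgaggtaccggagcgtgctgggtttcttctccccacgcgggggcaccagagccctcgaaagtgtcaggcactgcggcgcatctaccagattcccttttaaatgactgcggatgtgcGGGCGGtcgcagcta
Ngfr: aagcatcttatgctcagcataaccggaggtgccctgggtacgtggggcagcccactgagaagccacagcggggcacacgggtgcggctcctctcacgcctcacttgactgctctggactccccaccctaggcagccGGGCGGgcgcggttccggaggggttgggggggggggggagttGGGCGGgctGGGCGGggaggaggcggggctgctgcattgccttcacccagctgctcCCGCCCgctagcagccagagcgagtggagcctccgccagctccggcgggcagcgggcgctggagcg
Of the 8 member genes, 6 had windows in the table, 14 in all, with 7 of them for Bdnf, whose gene starts at several exons. The binding motif of the GLI transcription factors, GACCACCCA on either strand, was in 0 of the 14 windows and in 0.253% of all 32851 windows. Its core ACCACCC, which lies within the longer motif, was in 1 of the 14, a Bdnf window, and in 4.61% of all. The GC box was in 6 of the 14 windows, among them 1 match in Ntrk2 and 4 in Ngfr, and in 35.7% of all windows. The Ptch1 window held no GLI motif either. Absence says only that these letters are not within these 300 bases.

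Ntrk2, which encodes the receptor TrkB for BDNF and neurotrophin-4, had a lower signal after 5E1 than in any other group on its leading probe set, 1420838_at, the one with the highest mean. The signals were 1220 and 1056 after 5E1, 2578 and 3103 after 40-1a, 3167 and 2941 after cyclopamine, and 2099 and 3208 after PBS. Both 5E1 arrays lay below all 6 others, and the other groups overlapped with one another. Group means in ascending order were 1138 ± 116 after 5E1, 2654 ± 784 after PBS, 2841 ± 371 after 40-1a and 3054 ± 160 after cyclopamine (SD, n = 2 each), and the last 3 did not differ beyond their spread. The log2 difference was -1.31 (SE 0.23) for 5E1 minus 40-1a, a 2.48-fold lower signal, and -1.19 (SE 0.23) for 5E1 minus PBS, or 2.28-fold.

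The second Ntrk2 probe set, 1435196_at, also had its lowest signals after 5E1. Its signals were 501.9 and 248.8 after 5E1, 1137 and 931.6 after 40-1a, 1439 and 808.9 after cyclopamine, and 988.2 and 1269 after PBS. Again both 5E1 arrays were below the 6 others. The log2 difference was -1.52 (SE 0.38) against 40-1a and -1.64 (SE 0.38) against PBS, although without 5E1 replicate 1 these were -2.01 and -2.13 and without 5E1 replicate 2 they were -1.02 and -1.14. Within cluster 1, in single arrays, 5E1 minus 40-1a was -1.07 for 1420838_at and -1.17 for 1435196_at, and within cluster 2 it was -1.55 and -1.87. For 5E1 minus PBS the values were -0.78 and -0.96 within cluster 1 and -1.59 and -2.31 within cluster 2.

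One more Ntrk2 probe set above the filter, 1420837_at, was designed on the same GenBank entry as 1420838_at and did not follow it in all groups. It gave 58.0 and 7.85 after 5E1, 242.0 and 119.5 after 40-1a, 4.91 and 52.9 after cyclopamine, and 118.4 and 154.3 after PBS. Here the arrays of both blocking agents were below those of both controls, whereas 1420838_at was low after 5E1 and not after cyclopamine. With a mean log2 of 6.15 this probe set was the member just inside the filter, which it reached through its 40-1a and PBS arrays alone. Just outside the filter was 1446712_at, also of Ntrk2, at 5.92. The log2 difference of 1420837_at was -2.42 (SE 0.84) for 5E1 minus 40-1a and -2.10 (SE 0.84) for 5E1 minus PBS, and these were -3.41 and -3.10 without 5E1 replicate 1 and -1.42 and -1.11 without 5E1 replicate 2. Within clusters 1 and 2 it was -1.91 and -2.93 against 40-1a, and -0.93 and -3.28 against PBS, so the sign held in each cluster while the size did not.

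The remaining 5 Ntrk2 probe sets had signals between 3.32 and 85.0 on the 8 arrays and were not tested. With the deposited scaling all 8 Ntrk2 probe sets had a lower mean log2(signal + 9) after 5E1 than after 40-1a, from -2.42 to -0.19. In 5 of them, 3 above the filter and 2 below it, the arrays did not overlap, beside 11.2% of all tested probe sets being entirely lower. Nothing is read from that share, since Ntrk2 was chosen on this difference and the share leaves out probe sets below the filter. Against PBS 7 of the 8 Ntrk2 probe sets were lower. Of the 5 weak probe sets, 1437560_at had 11.9 and 12.7 after 5E1 against 14.2 and 18.2 after 40-1a. The exception against PBS was 1444121_at, at 0.05. The files do not say which Ntrk2 transcripts, full-length or lacking the kinase part, each probe set reads.

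**Figure D1:**
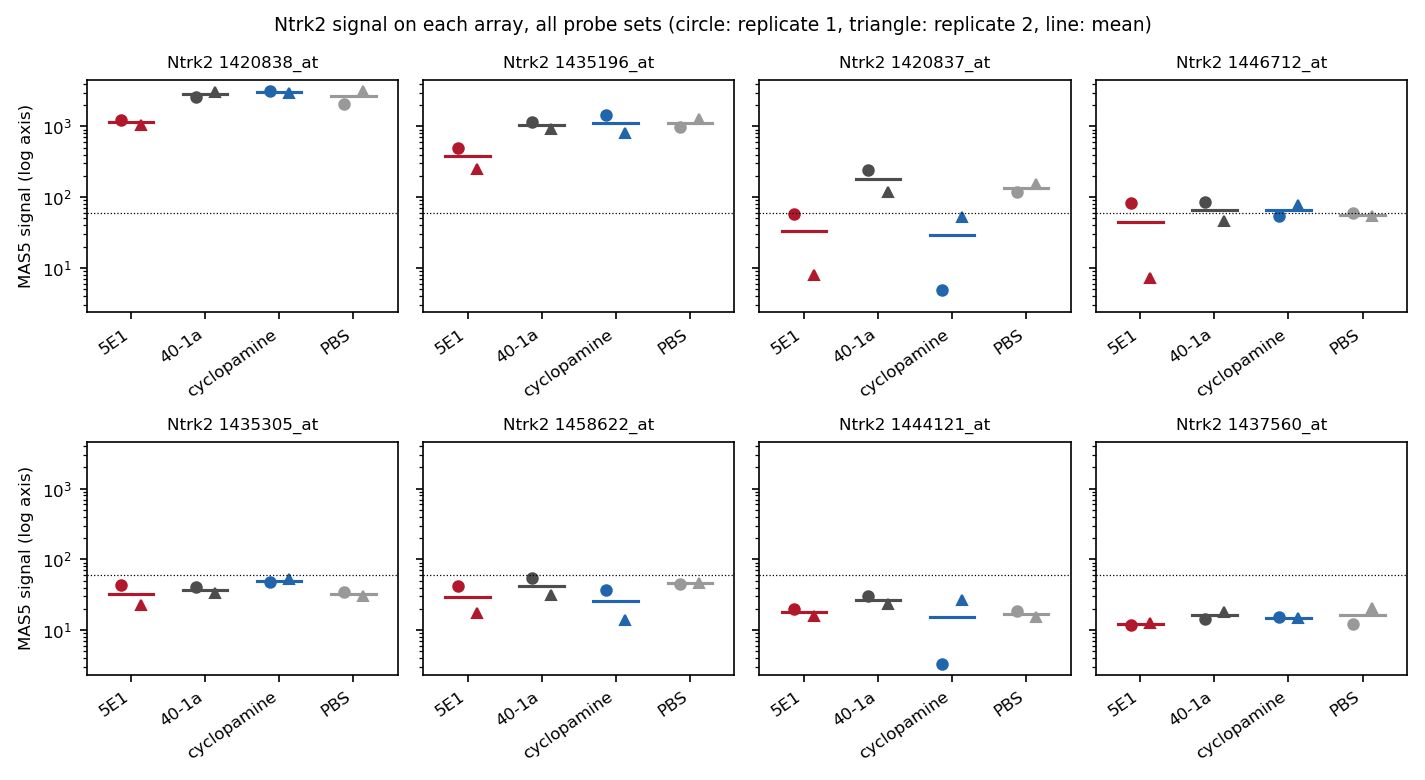
MAS5 signal (log axis) of the 8 Ntrk2 probe sets in the 4 injection groups, with a circle for replicate 1, a triangle for replicate 2, a line at the mean of 2 arrays and a dotted line at the filter level of 60.5. On 1420838_at and 1435196_at the 5E1 arrays lie below all others, on 1420837_at the cyclopamine arrays are low too, and the remaining 5 lie mostly under the filter level.

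Ntrk3, which encodes the neurotrophin-3 receptor TrkC, showed no such pattern. Its leading probe set, 1433825_at, gave 419.9 and 207.3 after 5E1, 294.5 and 291.2 after 40-1a, 255.2 and 297.3 after cyclopamine, and 486.3 and 253.9 after PBS. The 5E1 arrays lay on either side of the 40-1a arrays and overlapped the PBS arrays, with 5E1 replicate 2 the lowest of all 8. The log2 difference was 0.01 (SE 0.40) for 5E1 minus 40-1a and -0.24 (SE 0.40) for 5E1 minus PBS, and it was -0.48 and -0.74 without 5E1 replicate 1 but 0.51 and 0.25 without 5E1 replicate 2. Another probe set, 1422329_a_at, stayed between 103.2 and 133.0 on all 8 arrays, and 1425071_s_at between 69.9 and 118.3. The other 5 Ntrk3 probe sets were not tested, with signals from 7.35 to 91.6, and over all 8 the mean after 5E1 was higher than after 40-1a in 5 and lower in 3.

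Ngfr, which encodes p75, the receptor shared by all neurotrophins, was at 565.4 and 397.5 after 5E1, 707.1 and 433.2 after 40-1a, 688.8 and 401.5 after cyclopamine, and 671.0 and 1055 after PBS on its leading probe set 1454903_at. The arrays of 5E1, 40-1a and cyclopamine overlapped one another, and PBS replicate 2 was the highest of all 8. The log2 difference of 5E1 minus 40-1a was -0.22 (SE 0.38) with overlapping arrays. Against PBS it was -0.82 (SE 0.38) without overlap, -0.49 without PBS replicate 2 and -1.14 without PBS replicate 1. Within cluster 1 it was -0.24 and within cluster 2 it was -1.39. The second probe set, 1450177_at, had 251.0 and 50.9 after 5E1 against 147.5 and 226.1 after PBS, so its 5E1 arrays lay outside the PBS range on both sides. The third, 1421241_at, was not tested and ranged from 3.01 to 146.6.

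Bdnf, the ligand of TrkB, was read by 2 probe sets designed on the same GenBank entry. On 1422169_a_at the signals were 184.4 and 100.8 after 5E1, 152.1 and 140.7 after 40-1a, 102.1 and 134.0 after cyclopamine, and 123.2 and 114.5 after PBS. On 1422168_a_at they were 165.3 and 103.2 after 5E1, 141.6 and 85.3 after 40-1a, 94.7 and 67.0 after cyclopamine, and 132.3 and 102.0 after PBS. On both probe sets the 5E1 arrays bracketed or overlapped the other antibody. The log2 differences of 5E1 minus 40-1a were -0.09 (SE 0.35) and 0.23 (SE 0.39). They changed sign with the array left out, running from -0.50 to 0.32 for 1422169_a_at and from -0.11 to 0.57 for 1422168_a_at. In the order of its group means Bdnf 1422169_a_at had 40-1a highest and cyclopamine lowest, at 146 ± 8.03 and 118 ± 22.6 (SD, n = 2 each), with 5E1 at 143 ± 59.1 and PBS at 119 ± 6.22 between them.

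Of the GDNF genes, Gdnf itself had signals below the filter level on 6 of 8 arrays and was not tested. It was at 29.6 and 10.1 after 5E1, 85.8 and 7.10 after 40-1a, 99.3 and 10.9 after cyclopamine, and 20.2 and 7.15 after PBS. In every group replicate 1 was the higher array, and the 4 arrays of replicate 1 did not overlap the 4 of replicate 2. Gfra1, the ligand-binding subunit, was at 360.7 and 459.4 after 5E1, 312.5 and 472.7 after 40-1a, 419.2 and 504.4 after cyclopamine, and 364.7 and 530.6 after PBS on 1439015_at, with replicate 2 the higher in each. Across all single-gene probe sets the replicate 1 arrays lay above the replicate 2 arrays in 6.81% and below them in 4.92%. The log2 difference of Gfra1 was 0.08 (SE 0.30) for 5E1 minus 40-1a and -0.11 (SE 0.30) for 5E1 minus PBS, and its 3 probe sets ran from -0.37 to 0.08 in the first of these.

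Ret, the signalling kinase of the GDNF receptor, was at 149.3 and 85.7 after 5E1, 107.9 and 36.1 after 40-1a, 106.2 and 141.6 after cyclopamine, and 109.6 and 80.2 after PBS on 1421359_at. The 5E1 arrays overlapped those of each other group, and the 40-1a arrays lay further apart than those of the other groups. The log2 difference was 0.75 (SE 0.51) for 5E1 minus 40-1a, 0.07 without 40-1a replicate 2 and 1.44 without 40-1a replicate 1. Against PBS it was 0.25 (SE 0.51). The second Ret probe set, 1436359_at, was not tested and ranged from 22.4 to 144.8.

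**Figure D2:**
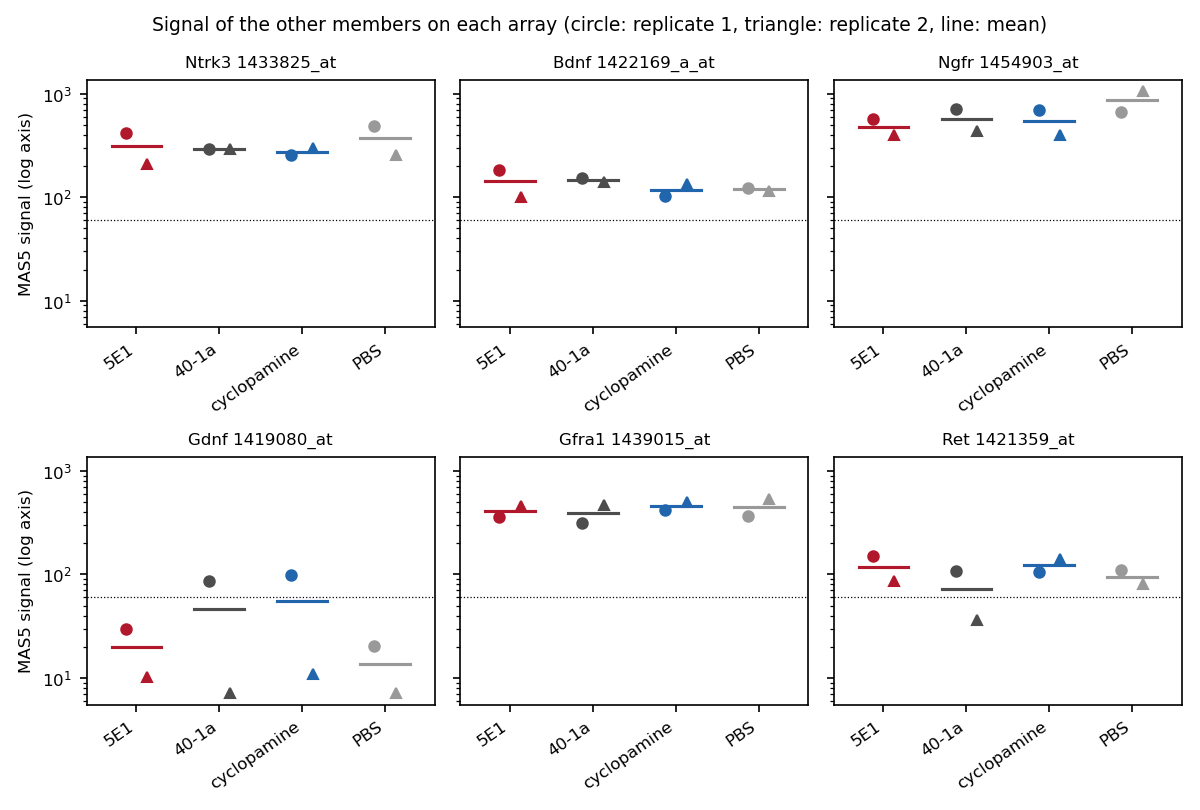
MAS5 signal (log axis) of the leading probe set of the other 6 measured members in the 4 injection groups, drawn with a circle for replicate 1, a triangle for replicate 2, a line at the mean and a dotted line at the filter level of 60.5. The 5E1 arrays overlap those of 40-1a in each panel, PBS replicate 2 is the highest array for Ngfr at 1055, and for Gdnf replicate 1 is above replicate 2 in every group.

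Counted over the 14 member probe sets above the filter, 3 had 5E1 arrays entirely below the 40-1a arrays and 0 entirely above, and the 3 were those of Ntrk2. Of all 23576 probe sets tested, 11.2% were entirely below and 9.35% entirely above. At a fold of at least 2 without overlap the same 3 were lower and 0 higher, against 0.416% and 0.271% of all probe sets. Since this contrast chose the members, nothing is read from these shares. Against PBS 4 of the 14 were entirely below, the same 3 and Ngfr 1454903_at, and 0 entirely above, with 12% and 10.5% of all probe sets. At least 2-fold and without overlap there were 3 lower and 0 higher, against 0.691% and 0.314%. Nothing is read from the shares against PBS either, since that contrast also brought Ntrk2 forward. At an unadjusted p under 0.05 limma called 1% of all probe sets in 5E1 minus 40-1a and 1.29% in 5E1 minus PBS, and 0% after adjustment in both. The median log2 difference of the 14 was -0.07 against 40-1a and -0.05 against PBS, beside -0.01 and -0.01 over all probe sets. The 2 comparisons share the 5E1 arrays.

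Cyclopamine minus PBS set the Smo antagonist against saline. The vehicle of cyclopamine is not given in the labels, so an effect of the drug and one of its vehicle cannot be told apart. No member passed, with limma calling 0 of 23576 probe sets (0% called) at an adjusted p of 0.05 and 623 (2.64%) at an unadjusted p under 0.05. The leading Ntrk2 probe set had means of 3054 ± 160 after cyclopamine and 2654 ± 784 after PBS, a log2 difference of 0.23 (SE 0.23, 95% interval -0.29 to 0.75, limma adjusted p = 0.965). The second, 1435196_at, was at -0.05 (95% interval -0.94 to 0.83, limma adjusted p = 0.990), and 0.08 with each array centred on its median. For 1420837_at, which reached the filter level through its 40-1a and PBS arrays alone, the value was -2.30 and is a description without a test. It was -1.22 without cyclopamine replicate 1 and -3.37 without cyclopamine replicate 2. Within cluster 2 the Ntrk2 values were -0.13 for 1420838_at, -0.64 for 1435196_at and -1.40 for 1420837_at.

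Among the other members tested, Ngfr had the lowest log2 difference of cyclopamine minus PBS. Probe set 1450177_at gave 73.0 and 75.0 after cyclopamine against 147.5 and 226.1 after PBS, and both cyclopamine arrays lay below both PBS arrays. The log2 difference was -1.21 (SE 0.62, 95% interval -2.65 to 0.23, limma adjusted p = 0.965). The leading probe set was at -0.67 (SE 0.38, 95% interval -1.54 to 0.20) with overlap, -1.05 without cyclopamine replicate 1 and -0.29 without cyclopamine replicate 2. In single arrays of cluster 2 the Ngfr values were -1.49 for 1450177_at and -1.37 for 1454903_at. Bdnf 1422168_a_at was at -0.50 (SE 0.39) without overlap, and the other Bdnf probe set at -0.02 (SE 0.35), or 0.11 with arrays centred on their medians. Ntrk3 1433825_at was at -0.34 (SE 0.40), Gfra1 1439015_at at 0.06 (SE 0.30) and Ret 1421359_at at 0.36 (SE 0.51), all with an interval that holds 0. In all, 3 of the 14 were entirely below PBS and 0 entirely above, while 17.7% and 14.7% of all probe sets were. At least 2-fold and without overlap, 2 were lower and 0 higher, beside 1.8% and 0.305%. Nothing is read from these counts, since they hold 1420837_at, which passed the filter only through arrays of the other groups. Centring shifted the median of all probe sets by 0.13 in this comparison. Beside these values, 11 of 11 marker genes of skeletal muscle had a higher mean after cyclopamine, 9 of 10 of dental epithelium were higher, 12 of 13 of dental mesenchyme lower and 7 of 7 of endothelium lower. Their part in the values of the members was not tested.

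The comparison of 40-1a with PBS set the control antibody against the saline injection. Here too limma called 0 of 23576 probe sets (0% called), with 168 (0.713%) at an unadjusted p under 0.05. Ntrk2 1420838_at was at 0.12 (SE 0.23, 95% interval -0.40 to 0.64, limma adjusted p = 1.00), and its arrays overlapped those of PBS, with 0.30 within cluster 1 and -0.05 within cluster 2. Ngfr 1454903_at was at -0.60 (SE 0.38) and Ngfr 1450177_at at -0.52 (SE 0.62), the second without overlap. The first was -0.94 without 40-1a replicate 1 and -0.25 without 40-1a replicate 2. Bdnf 1422169_a_at was at 0.28 (SE 0.35), also without overlap. The highest value was that of Gfra1 1421973_at, at 0.76 (SE 0.66) with overlap. Ret 1421359_at was at -0.50 (SE 0.51) and Ntrk2 1435196_at at -0.12 (SE 0.38), both with overlap. Ntrk2 1420837_at, which reached the filter level through its 40-1a and PBS arrays alone, was at 0.32 (SE 0.84), also with overlap. Of the 14 members 1 was entirely above and 1 entirely below PBS, beside 10.4% and 10.7% of all probe sets, and 0 were so by at least 2-fold, beside 0.259% and 0.254%. Beside these values, 13 of 13 markers of dental mesenchyme and 7 of 7 of endothelium had a lower mean after 40-1a, and 10 of 10 of dental epithelium and 8 of 11 of muscle a higher one, and their part in the members' values was not tested. The 3 comparisons with PBS share its arrays, and all 3 hold the high Ngfr signal of PBS replicate 2.

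**Figure D3:**
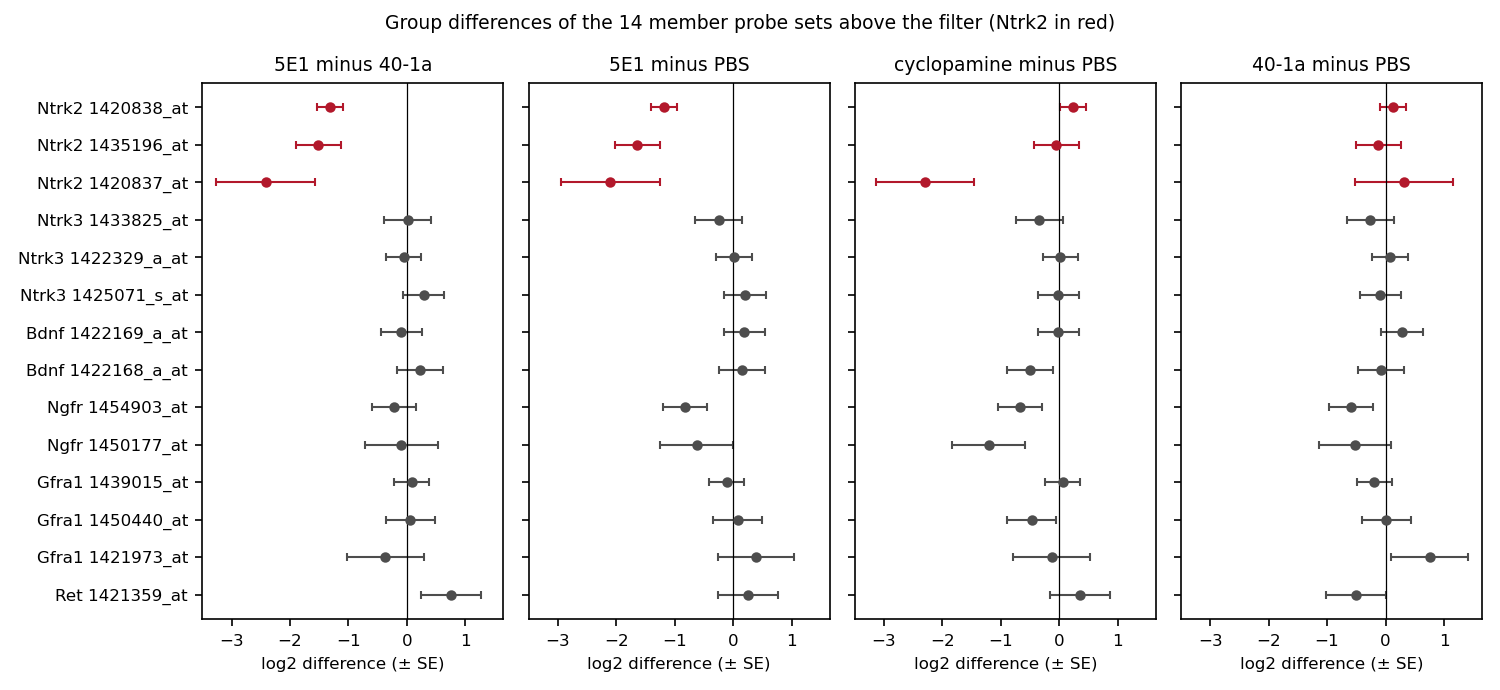
Log2 difference with its SE (horizontal axis) of the 14 member probe sets above the filter, in the 4 comparisons of 2 arrays each. In the comparisons of 5E1 the Ntrk2 probe sets, in red, lie between -2.42 and -1.19 and the other members between -0.82 and 0.75, while with cyclopamine only 1420837_at of the 3 is far from 0, at -2.30.

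Other genes of neurotrophin and GDNF signalling were taken from 5 lists, 1 leading probe set per gene. Of 40 genes tested, 0 passed in any of the 4 comparisons by limma (0% of all probe sets called). At an unadjusted p under 0.05 there were 0 genes after 5E1 against 40-1a or PBS, 0 after cyclopamine and 1 after 40-1a, Dok4 at -0.72, named for this value. Between 5E1 and 40-1a arrays 2 of the 40 were entirely higher and 5 entirely lower, beside 9.35% and 11.2% of all probe sets, with a median of -0.08 beside -0.01 over all probe sets. The list of neurotrophin adaptors had 4 of 17 genes with a higher mean after 5E1 and 13 with a lower one, beside 47.3% of all probe sets with a higher mean. The proneurotrophin processing list had 5 higher and 1 lower. Ligands and receptors outside the members had 2 higher and 3 lower, the GDNF family list 3 and 4, and the Ret adaptors 1 and 4.

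Among ligands and receptors outside the members, Ntf5, the gene of neurotrophin-4, averaged 772 ± 294 in 5E1 arrays and 659 ± 321 in 40-1a arrays (SD, n = 2 each), a log2 difference of 0.26 (SE 0.39). Sort1, the gene of the proneurotrophin co-receptor sortilin, averaged 917 ± 12.2 in 5E1 arrays and 857 ± 75.8 in 40-1a arrays, a log2 difference of 0.10 (SE 0.17), and its relatives Sorl1 and Sorcs2 were at -0.12 (SE 0.34) and -0.12 (SE 0.25). Sorcs3, another sortilin relative, named after its value was seen, had 15.6 and 65.7 after 5E1 against 143.9 and 94.2 after 40-1a (log2 -1.55, SE 0.69). Its arrays did not overlap there, but they overlapped with PBS at 147.7 and 42.5, and it did not pass (limma adjusted p = 1.00). Of the intracellular partners, Bex3 and Maged1, whose products bind the p75 intracellular part, were at -0.25 (SE 0.14) and -0.01 (SE 0.15) for 5E1 minus 40-1a. Kidins220, a scaffold of Trk receptors, was at -0.07 (SE 0.18) and the phosphatase gene Ptpn11 at -0.08 (SE 0.17). Of these 4 partners Bex3 alone had 5E1 arrays that did not overlap the 40-1a arrays. The processing protease genes Furin, Mmp9, Plat and Pcsk7 lay between -0.06 and 0.10. On the GDNF side Nrtn, the neurturin gene, was at -0.13 (SE 0.50), the co-receptor genes Gfra2 at 0.03 (SE 0.83) and Ncam1 at -0.24 (SE 0.53), and the heparan sulphate proteoglycan gene Sdc3 at -0.14 (SE 0.23). The Ret adaptor genes Grb10, Grb7, Shank3 and Dok1 lay between -0.26 and -0.01.

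Markers of nerve and glia were measured beside Ntrk2, and their sums in the 5E1 arrays overlapped or exceeded those in the 40-1a arrays. Of 13 neuronal genes 9 were above the filter, and Elavl4, Nefh, Pou4f1 and Scn9a were not. Their summed signal was 2399 to 2545 after 5E1 against 1980 to 2211 after 40-1a, and 7 of 13 were higher and 6 lower. Against PBS, where the sum was 2096 to 2375, 4 of the 13 were higher after 5E1 and 9 lower. Of the 8 glial genes with a probe set 6 were above the filter, with sums of 3574 to 4347 after 5E1 against 3584 to 4395 after 40-1a. Against PBS, where the sum was 4108 to 4791, 4 of the 8 were higher after 5E1 and 4 lower. In the tissue of origin, all 13 markers of dental mesenchyme and all 10 measured ones of dental epithelium were above the filter. The mesenchymal sum was 44952 to 91307 after 5E1 against 57458 to 89023 after 40-1a, lower in 11 of 13 genes, and the epithelial sum was 64590 to 97164 against 63314 to 93857. Against PBS, 13 of 13 mesenchymal markers and 7 of 7 endothelial ones were lower after 5E1, and 10 of 10 epithelial and 10 of 11 muscle ones higher. The muscle sum was 4774 to 5406 after 5E1 against 1419 to 11712 after 40-1a, and the endothelial sum 1994 to 3963 against 2560 to 3380. The part of other cell types in the Ntrk2 values was not tested.

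The genes whose pattern over the 8 arrays was nearest to that of Ntrk2 1420838_at were found by the root mean square difference of centred log2 values, among 12998 other genes with a leading probe set above the filter. They were Lypd1, at 0.19, Atp6v1b1 and Krt36, at 0.21 each, and Fat2 and Smoc1, at 0.24 each, while the median gene was at 0.63. Lypd1 encodes a GPI-anchored protein of the Ly6 family, Atp6v1b1 a proton pump subunit, Krt36 a keratin, Fat2 a large protocadherin and Smoc1 a secreted matricellular protein. Lypd1 had 182.0 and 215.3 after 5E1 against 429.7 and 474.6 after 40-1a, and Fat2 had 332.6 and 248.5 against 512.9 and 522.2. The log2 difference of 5E1 minus 40-1a in the 5 ran from -1.58 for Krt36 to -0.83 for Fat2, a range that holds the -1.31 of Ntrk2. The choice by pattern fixes this likeness, and it was not tested. Among the member probe sets above the filter, 1435196_at was nearest, at 0.35, those of the other genes stood at 0.58 to 0.93, and Ntrk2 1420837_at at 1.33.

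**Figure D4:**
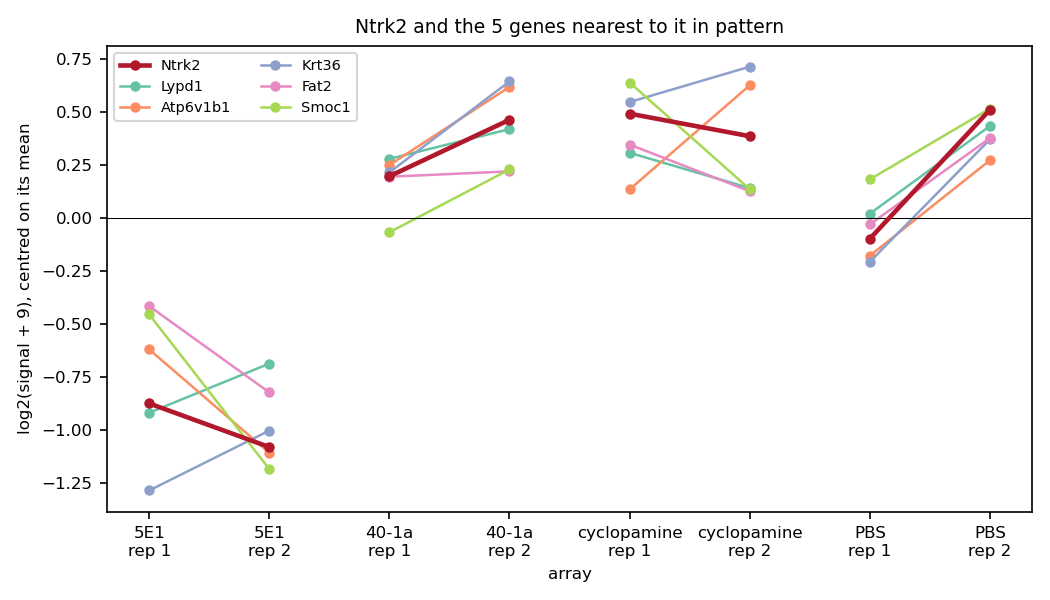
Log2(signal + 9) centred on its own mean (vertical axis) on each of the 8 arrays for Ntrk2 1420838_at and the 5 genes nearest to it in pattern, with a line joining the 2 arrays of a group. All 6 genes are below their mean on both 5E1 arrays, and Ntrk2 spans 1.59 log2 units from the lowest to the highest array.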

How the data were processed

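Gene expression in 8 tooth germ samples was measured on Affymetrix mouse arrays, 1 per sample. The authors deposited linear probe set intensity values, computed in MAS5 per the submitters' processing notes. MAS5 version, detection calls and hybridisation batches: not given in the sources used here. After trimming 2% at each end the mean was 500 on each array, and no rescaling was applied. In the 2016 platform annotation 34945 of 45101 probe sets had exactly 1 gene, and 18145 of their 18193 symbols were in the RefSeq gene table.

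Signals were transformed to log2(signal + 9), with 9 near their 10th percentile, which understates changes of weak probe sets. Single-gene probe sets with a mean under the 40th percentile were left out. Limma 3.58.1 in R 4.3.3 (lmFit, contrasts.fit, eBayes with trend) fitted 4 group means to the 8 arrays, leaving 4 residual degrees of freedom. P-values were adjusted by Benjamini-Hochberg over 23576 probe sets at a threshold of 0.05. The fit was tested on simulated data with independent errors, no array clusters and changes larger than any Ntrk2 difference given here. How it does with smaller changes or clustered arrays was not tested. The number of arrays limits the precision.

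Members, lists, tests and alternatives were chosen with earlier results of these data known. Named are the members, up to 4 genes of each list with the highest mean, the 5 genes nearest to Ntrk2 in pattern, and Ptch1 and Gli1 as a check, with Dok4, Sorcs3, Artn and Lrwd1 named after their values were seen. Alternatives covered scaling, pseudocount, filter, variance model, 1 probe set per gene, blocks for replicate number and array cluster, the compared groups alone, and each array left out.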

Additional observations from a re-analysis of the deposited data

How the results depend on the processing

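No member passed the threshold under any alternative run. Of 526 member values in the comparisons of cyclopamine and 40-1a with PBS, 0 passed and 45 had their sign turned. These 526 include the weakest Ntrk2 probe set above the filter, whose values in cyclopamine minus PBS are descriptions without a test. The 3 Ntrk2 probe sets above the filter were lower after 5E1 in all alternatives that gave them a value. Against PBS, 1420838_at ran from -1.49 to -0.88 when an array was left out. Ntrk2 was chosen on this difference, so these refits of the same arrays do not test its sign. The weakest of the 3 also passed the filter through its 40-1a and PBS arrays alone. The causes of the changes listed here were not tested.

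The labels give groups the same replicate numbers but name no pairing, and deviations of same-numbered arrays correlated at 0.03 to 0.56. With the replicate number as a block, limma called 1 probe set, Ptch1, in each 5E1 comparison, against 0 without it. With array cluster as a block, which drops cyclopamine replicate 1, it called 2, Ptch1 and Gli1, in each 5E1 comparison and 1, Lrwd1, in cyclopamine minus PBS. Leaving out 1 array gave 0 to 175 calls in cyclopamine minus PBS, the 175 without cyclopamine replicate 2, all lower and with 0 members.

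Signs turned in cyclopamine minus PBS under quantile normalisation for Gfra1 1421973_at (0.00154), Bdnf 1422169_a_at (0.12) and Ntrk3 1425071_s_at (0.11). Under median centring they turned for these Bdnf (0.11) and Ntrk3 (0.11) probe sets and Ntrk2 1435196_at (0.076). With the cluster block they turned for Gfra1 1421973_at (0.78) and 1439015_at (-0.049), Bdnf 1422169_a_at (0.33) and Ntrk3 1433825_at (0.083). In 40-1a minus PBS they turned for Gfra1 1450440_at under quantile normalisation (-0.026) and median centring (-0.068), and for Ntrk3 1422329_a_at under median centring (-0.00799).

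With an array left out, cyclopamine minus PBS ran from -0.072 to 0.54 for Ntrk2 1420838_at, -0.46 to 0.36 for Ntrk2 1435196_at, -0.80 to 0.11 for Ntrk3 1433825_at, -0.079 to 0.12 for Ntrk3 1422329_a_at and -0.22 to 0.18 for Ntrk3 1425071_s_at. It ran from -0.20 to 0.16 for Bdnf 1422169_a_at, and for Gfra1 from -1.11 to 0.85 (1421973_at), -0.20 to 0.33 (1439015_at) and -0.97 to 0.025 (1450440_at). In 40-1a minus PBS the ranges were -0.18 to 0.43, -0.30 to 0.058 and -0.17 to 0.80 for Ntrk2 1420838_at, 1435196_at and 1420837_at. They were -0.71 to 0.20, -0.088 to 0.24 and -0.42 to 0.25 for Ntrk3 1433825_at, 1422329_a_at and 1425071_s_at. They were -0.48 to 0.10 and -0.30 to 0.33 for Gfra1 1439015_at and 1450440_at, -0.41 to 0.27 for Bdnf 1422168_a_at and -1.19 to 0.18 for Ret 1421359_at. A lone remaining array is assumed to vary like the other groups. The stricter filter and the use of 1 probe set per gene gave no value for the probe sets they removed.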

Other observations

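Among the pathway genes, Artn, the gene of the GDNF relative artemin, had 138.9 and 182.9 after cyclopamine against 49.4 and 124.3 after PBS, a log2 difference of 0.93 (SE 0.51, limma adjusted p = 0.965). It was chosen after its values were seen. Its 40-1a arrays, at 118.4 and 219.2, overlapped both groups. The log2 difference of Artn was of like size for 40-1a minus PBS, at 0.95 (SE 0.51), and was 0.71 (SE 0.51) for 5E1 minus PBS. PBS replicate 1 was its lowest array. Of the 40 pathway genes tested, 6 had all 4 arrays of one replicate number on one side of the 4 of the other with replicate 1 above, and 1 with replicate 2 above. These are 15% and 2.5%, beside 6.81% and 4.92% of all single-gene probe sets, and the difference was not tested. The 40 are leading probe sets above the filter, while the shares of all also hold probe sets below it, so the sets are not alike. One of the 7 was Gfra2, the neurturin co-receptor gene. It had 943.1 and 298.2 after 5E1, 907.8 and 296.4 after 40-1a, 1264 and 278.3 after cyclopamine, and 1128 and 677.9 after PBS.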
